A study of Nothobranchius furzeri with 16 samples.

Results

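Footprint reads on 4 glial and myelin genes were compared between old and young brains of the African turquoise killifish, Nothobranchius furzeri, a short-lived annual fish. The genes were GFAP, APOEB, CA2 and ASPA(2of3), 4 of the 28494 gene symbols of the ribosome footprint table. They were chosen by name with earlier results of these data known, so that their p-values are not those of a blind choice. All 4 were above 0 in at least 1 library, as were 6472 symbols in all. The old group was 4 footprint libraries from brains of male fish of strain MZM-04/10p at 26 weeks of age, and the young group 4 libraries from male fish of the same strain at 6 weeks. A further 4 RNA-seq libraries per age, from the same strain, sex and ages, gave transcript levels. No treatment or allele was named for any group. The libraries of an age are described as replicates, but whether each was made from 1 fish or from several is not stated, and the p-values below rest on the spread among libraries, part of which may be technical.

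Ribosome footprinting sequences the stretches of mRNA that translating ribosomes protect from nuclease, so that a gene's share of footprints follows both its mRNA level and how densely ribosomes load it. Astroglia of fish, largely radial glia, carry intermediate filaments of GFAP. Apolipoprotein E forms particles that move lipid between brain cells. Oligodendrocytes wrap axons in myelin, a stack of lipid-rich membrane that speeds conduction. In mammals, carbonic anhydrase 2 serves ion and acid-base transport in oligodendrocytes, and aspartoacylase releases acetate from N-acetylaspartate for myelin lipids.

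Footprint levels were deposited as FPKM, fragments per kilobase and 1000000 mapped fragments, and within a library the FPKM of a gene was a whole multiple of the value that a single read gave it. Of the 6472 symbols, 2587 were above 0 in 2 or more libraries, which allows a check, and 97.6% of these gave whole reads. The tolerance was 0.02 reads at 1 read and widened with the number of reads. The lowest value of a gene could stand for up to 6 reads, and the smallest number that fitted was taken. The check therefore cannot see a factor shared by all libraries of a gene, and read numbers below are the fewest that fit. The 3885 symbols above 0 in 1 library only were taken as 1 read there, unchecked, if at 0.5 FPKM or more. Reads were thus recovered or assumed for 6407 symbols in all, and both are called recovered below. The recovered reads numbered 4126, 3107, 3576 and 1868 in the old libraries, against 2153, 998, 872 and 323 in the young ones. Shares below are shares of these recovered reads, and intervals are exact 95% binomial intervals that cover counting error only. Levels are given as TPM, which is FPKM rescaled to a sum of 1000000 per library. A single symbol, BX296557.7, took 87.5% of TPM on average, from 67.9% in young replicate 4 to 95.6% in old replicate 4. The genes with recovered reads held 9.53% of TPM in young replicate 4 and 0.449% in old replicate 4, so that TPM of these libraries compare poorly. Libraries with replicate number 4 stood apart at both ages: the young one had the fewest recovered reads, and the old one had 615 recovered reads per unit of mapped reads (the mapped reads of old replicate 1), against 3219 to 6108 in the other 7.

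GFAP, the filament protein of astroglia, had 3, 5, 4 and 3 footprint reads in the old libraries, against 0, 0, 1 and 0 in the young ones. It was read in 4 of 4 old libraries and in 1 of 4 young libraries. In levels, these reads came to 27.9, 63.5, 54.2 and 5.37 TPM in the old libraries and to 0, 0, 30.3 and 0 TPM in the young ones. In TPM, the young library with a read, replicate 3, lay above old replicates 1 and 4. By share of recovered reads, at 0.115%, it lay above old replicates 1 (0.0727%) and 3 (0.112%) and below old replicate 4 (0.161%). The ages thus overlapped on both scales. As a share of recovered reads, GFAP took 0.127% ± 0.0426 in old and 0.0287% ± 0.0573 in young libraries (mean ± SD, n = 4 per age). The difference was 0.0979 percentage points (2-sided exact permutation test, p = 0.0857), and the smallest p that 4 against 4 libraries can give is 0.0286. With the libraries pooled, 15 of 12677 reads, or 0.118% (0.0662% to 0.195%), lay on GFAP in old brain and 1 of 4346, or 0.0230% (0.000583% to 0.128%), in young brain. The ratio of these pooled shares was 5.14, with a counting interval of 0.791 to 216 that includes 1.

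**Figure D1:**
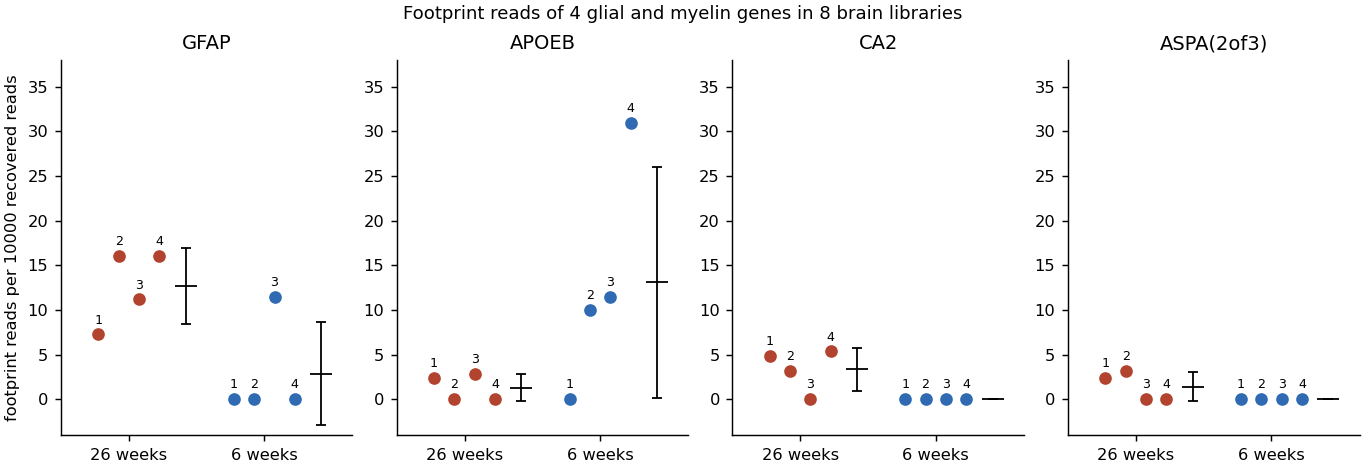
Footprint reads of each gene per 10000 recovered reads (y axis) in the 4 old (red) and 4 young (blue) libraries, numbered by replicate, with the mean and SD in black. GFAP had reads in all 4 old libraries and in young replicate 3 alone, whereas the highest point of APOEB was a single read in young replicate 4.

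APOEB, 1 of the killifish genes for apolipoprotein E, had 1, 0, 1 and 0 reads in the old libraries, against 0, 1, 1 and 1 in the young ones. It was thus read in 2 old and 3 young libraries. In levels, this was 19.1, 0, 27.9 and 0 TPM in the old libraries and 0, 63.8, 62.3 and 482 TPM in the young ones. The 482 TPM were 1 read in the shallowest library, and they put APOEB at rank 82 of 6472 symbols by mean level over the 8 libraries (81.9 TPM). The share of recovered reads was 0.0131% ± 0.0151 in old and 0.131% ± 0.129 in young libraries, a difference of -0.118 percentage points (n = 4 per age, exact permutation test, p = 0.143). The ratio of the pooled shares was 0.229 (counting interval 0.0191 to 2.00). Without replicate 4 of both ages, an alternative chosen after seeing the data, the difference was -0.0542 percentage points (exact permutation test, p = 0.400), and the log2 fold change given below was -0.94 in place of -2.93.

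CA2, carbonic anhydrase 2, had 2, 1, 0 and 1 reads in the old libraries, or 18.2, 12.4, 0 and 1.75 TPM, and was listed at 0 in the 4 young ones. Its 4 of 12677 reads in old brain were 0.0316% (0.00860% to 0.0808%). The 0 of 4346 reads in young brain allow a share of up to 0.0690%, taken as 3 reads, or 0.0848% by the exact interval. Each of these limits is above the old share. ASPA(2of3), 1 of 3 symbols for aspartoacylase, had 1, 1, 0 and 0 reads in the old libraries, or 17.4, 23.7, 0 and 0 TPM, and was likewise listed at 0 in the 4 young ones. A difference between the ages was not detectable at this depth for either gene (exact permutation test on the shares, n = 4 per age, p = 0.143 for CA2 and p = 0.429 for ASPA(2of3)). No further row of the base symbols GFAP, APOE or CA2 was listed. Of the other aspartoacylase rows, ASPA(3of3) had 1 read, in old replicate 1, and ASPA(1of3) was listed at 0 in all 8 libraries. How the estimation divided reads between such copies is not given in the sources used here.

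**Figure D2:**
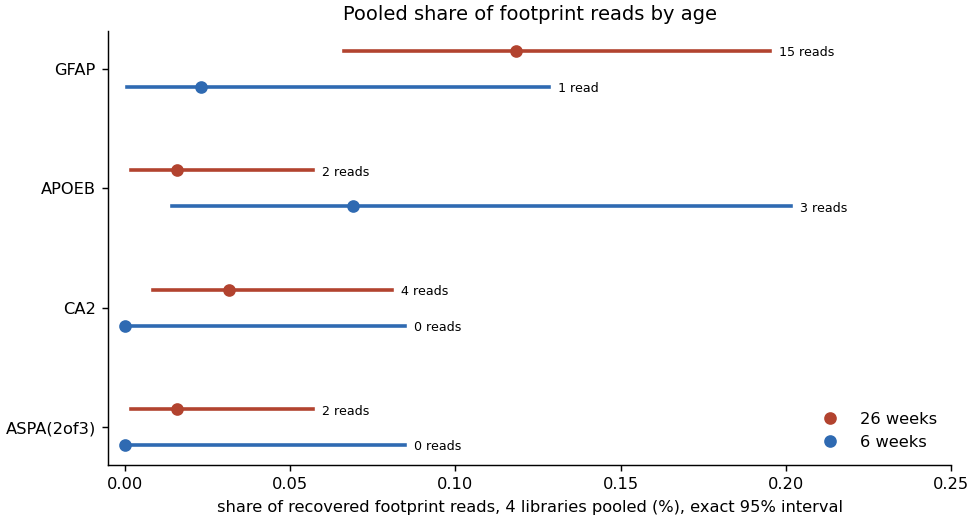
Pooled share of recovered footprint reads (x axis, %) of each gene in old (red, upper) and young (blue, lower) brain, with exact 95% binomial intervals as lines and the number of reads at their ends. The intervals of the ages overlapped for each of the 4 genes, including GFAP with 0.118% in old and 0.0230% in young brain.

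Levels were then tested over all genes with limma on log2(TPM + 1), for the 5200 genes whose mean over the 8 libraries reached 1 TPM, a filter that all 4 genes passed. Of the 5200 genes, 0 were called at an adjusted p under 0.05 (0% called), whereas 86 had an unadjusted p under 0.05, and none of the 4 was among the 86. The median log2 fold change of all 5200 genes, old over young, was 0.95. Pooled, the old libraries had 12677 recovered reads and the young ones 4346, although young replicate 1 (2153) had more than old replicate 4 (1868). The log2 fold change was 3.59 for GFAP (SE 1.94) and -2.93 for APOEB (SE 2.06). For CA2 and ASPA(2of3), the fitted values were 2.37 (SE 1.50) and 2.21 (SE 1.48). These last 2 are no measure of size, since the young level was 0 and the value follows from the pseudocount. The size for GFAP, at 0 in 3 of 4 young libraries, also moved with the pseudocount, to 6.01 with 0.1 and 1.52 with 10, and it was 7.37 with levels scaled without the 20 most abundant genes. The limma adjusted p was 0.510 for each of the 4 genes. Relative to the median of all genes, the log2 fold changes were 2.64 for GFAP and -3.88 for APOEB. That median depended on the genes kept. It was 0.28 over the 909 genes that averaged at least 10 TPM, GFAP and APOEB among them. Without replicate 4 of both ages, the log2 fold change was 3.90 for GFAP, 2.67 for CA2 and 2.94 for ASPA(2of3), with adjusted p of 0.50 for each, and the GFAP share differed by 0.0769 percentage points (n = 3 per age, exact permutation test, p = 0.30). For none of the 4 did the old and young levels separate without overlap, which 54 of the 5200 genes did (1.04%). The recovered reads were also tested with edgeR quasi-likelihood on the 245 genes that reached 10 reads in all. GFAP was the only 1 of the 4 with that many (log2 fold change 2.11, adjusted p = 0.538), and 1 gene of the 245 was called. The median log2 fold change of the 245 genes was -0.11.

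**Figure D3:**
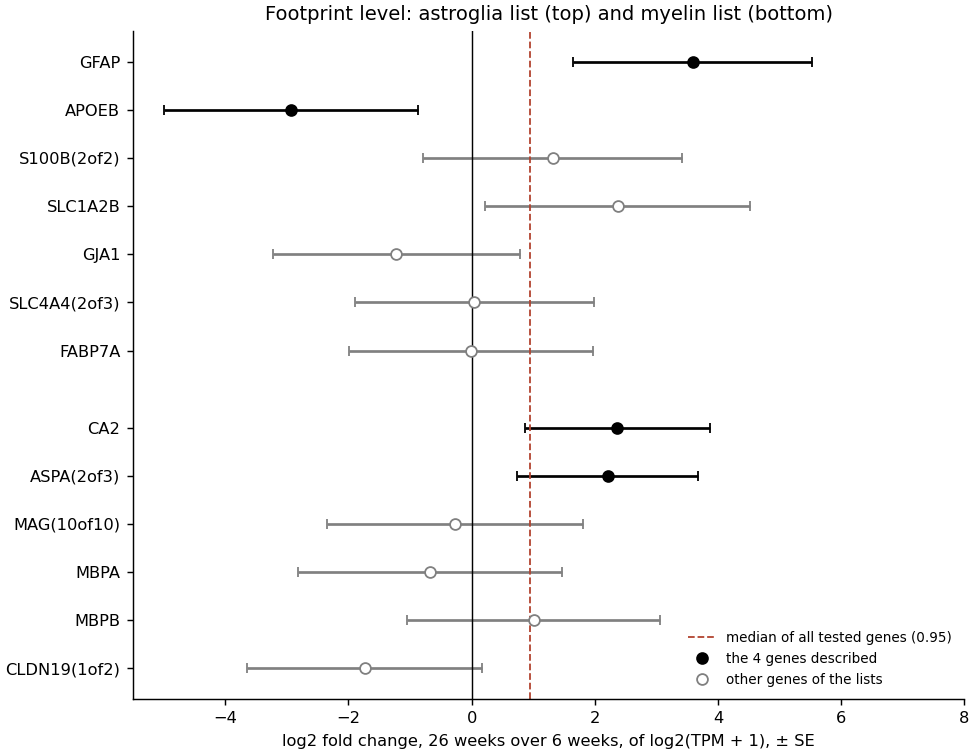
Footprint log2 fold change, old over young, of log2(TPM + 1) with SE (x axis) for the 4 genes (filled) and other genes of the astroglia and myelin lists with at least 4 recovered reads (open). GFAP at 3.59 was the highest and APOEB at -2.93 the lowest of the genes shown, the dashed line marks the median of all 5200 genes at 0.95, and every gene shown had an adjusted p of 0.510 or more. Over the 909 genes that averaged at least 10 TPM, the median was 0.28.

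Of the other genes of the astroglia list, S100B(2of2), SLC1A2B and GJA1 had more reads than GFAP, and each was read at both ages. S100B(2of2), a calcium-binding protein, had 36 reads in old and 11 in young libraries. SLC1A2B, a glutamate transporter that clears the transmitter into astroglia, had 5, 8, 11 and 8 reads in the old libraries, against 1, 2, 1 and 0 in the young ones. GJA1, the gap junction protein connexin 43, had 20 and 8 reads, SLC4A4(2of3), a bicarbonate cotransporter, 5 and 3, and FABP7A, a fatty acid carrier of radial glia, 3 and 2, in old and young libraries. Their log2 fold changes were 1.31 for S100B(2of2), 2.37 for SLC1A2B, -1.22 for GJA1, 0.044 for SLC4A4(2of3) and -0.0045 for FABP7A. Of the 26 rows of the astroglia list, 9 were above 0 and tested. Their median log2 fold change was 0.044, beside 0.95 over all genes and 0.28 over those that averaged at least 10 TPM. As a whole the list, GFAP and APOEB included, took 0.919% ± 0.224 of recovered reads in old and 0.876% ± 0.311 in young libraries (n = 4 per age). APOEB was placed in this list by name, and the cells that carry it in killifish brain were not identified here.

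Among the myelin genes, adhesion and basic proteins of the sheath had more reads than CA2 and ASPA(2of3), and were read at both ages. MAG(10of10), 1 of 10 symbols for the myelin-associated glycoprotein, had 17 reads in old and 6 in young libraries. The 2 myelin basic protein genes had 12 and 8 (MBPA) and 10 and 7 (MBPB), and CLDN19(1of2), a claudin, had 4 and 3, in old and young libraries. The log2 fold changes of these 4 genes lay between -1.74 for CLDN19(1of2) and 1.01 for MBPB. Of the 40 rows of the myelin and oligodendrocyte list, 15 were above 0 and 14 were tested, with a median log2 fold change of 0.93. Many of the 14, CA2 and ASPA(2of3) among them, had 0 reads in the young libraries. Their positive values follow from the pseudocount, so that this median is no measure of a change. The list took 0.606%, 0.837%, 0.419% and 0.321% of recovered reads in the old libraries, against 0.650%, 0.701%, 0.573% and 2.17% in the young ones. The young replicate 4 value was 7 of 323 reads. None of the 23 genes tested in both lists was called.

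The markers of other cell types were set beside these values. Of the neuron list, 23 of 31 rows were above 0, and the list took 0.923% to 1.98% of recovered reads in the old libraries and 1.26% to 2.00% in the young ones. The microglia list had 4 of 19 rows above 0, with 6 reads in old and 0 in young libraries, or 0.0322% to 0.0559% of each old library. The 0 of 4346 young reads allow a share of up to 0.0690%, taken as 3 reads, which is above each of these old shares. The erythrocyte list had 2 of its 4 rows above 0, with 2 reads in old and 1 in young libraries, and its share ran from 0% to 0.0322% in the old libraries and from 0% to 0.0464% in the young ones. Among the defining markers of microglia, AIF1, CSF1R, P2RY12, C1QB and IRF8 were at 0 in all 8 libraries, and the reads lay on CD74A, CD74B and SPI1A, among others. Of astroglia, AQP4, ALDH1L1 and GLUL were at 0, and of oligodendrocytes OLIG1, OLIG2 and MAL. A listing at 0 means that no footprint read was assigned to the symbol at this depth, and not that its gene was unexpressed. RNA levels for GLUL and ALDH1L1 are given below. The part of the listed cell types in the footprint values of the 4 genes was not tested. In whole brain, a change in the number of cells of a type and a change in the RNA of each cell cannot be told apart.

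**Figure D4:**
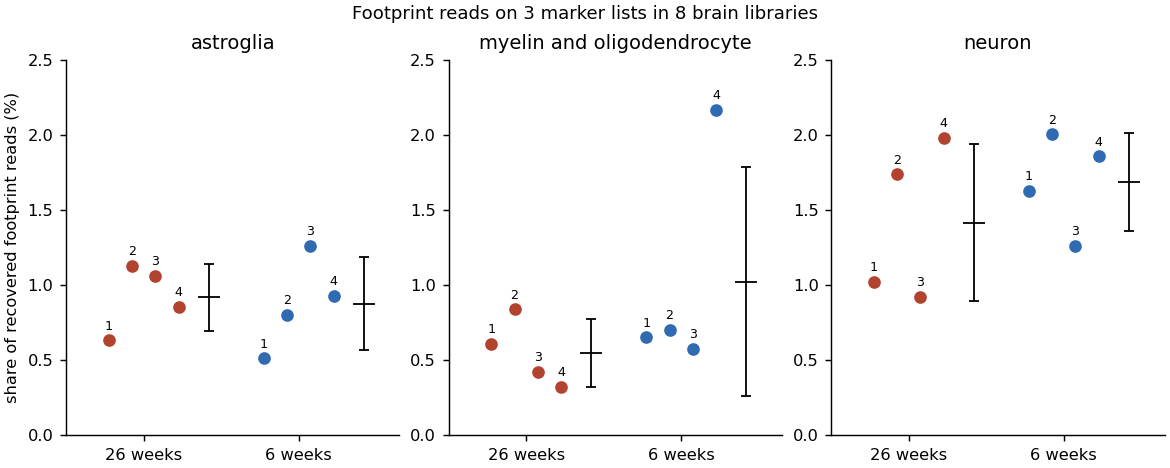
Share of recovered footprint reads (y axis, %) on the astroglia, myelin and neuron lists in the 4 old (red) and 4 young (blue) libraries, numbered by replicate, with the mean and SD in black. The ages overlapped for each list, and young replicate 4 stood at 2.17% on the myelin list.

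The genes whose footprint levels ran most like those of the 4 genes were found by Pearson's r of log2(TPM + 1) over the 8 libraries, among the 408 genes that averaged 10 TPM or more and were above 0 in at least 4 libraries. These libraries differ in depth, so that genes read in the same libraries correlate, and r is given as a description. GFAP ran most like ATP6V1E1B, a subunit of the vacuolar proton pump (r = 0.993), SLC38A2, an amino acid transporter (r = 0.982), and SPOCK3(1of2), a secreted proteoglycan (r = 0.978). Each of these had reads in all 4 old libraries and 1 read in young replicate 3. APOEB ran most like VAT1(1of2) (r = 0.964), VCP(1of2), an ATPase that extracts ubiquitinated proteins (r = 0.918), and DDX5(2of2), an RNA helicase (r = 0.917). CA2 and ASPA(2of3) were above 0 in too few libraries for such a comparison.

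Transcript levels were read from the RNA counts of 26739 gene identifiers, in libraries of 9461792 to 13771769 counts. An identifier was paired with the same killifish gene name for 2 of the 4 genes, GFAP (Nfu_g_1_007538) and APOEB (Nfu_g_1_011018). For the old RNA samples the title holds a number that differs from the 26 weeks of the age label, and the label was followed. The RNA libraries with replicate number 1 stood apart at both ages. Across genes, they correlated with each other at r = 0.976 and with the other libraries at 0.869 to 0.919, whereas the other 6 correlated at 0.941 to 0.992. Values are therefore also given for replicates 2 to 4 alone.

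GFAP mRNA stood at 437, 834, 751 and 598 CPM (counts per 1000000 counts, TMM-scaled) in the old libraries, against 378, 914, 603 and 579 CPM in the young ones. The ages overlapped throughout, and in each the replicate 1 library was the lowest and the replicate 2 library the highest. The log2 fold change was 0.081 (SE 0.32, edgeR quasi-likelihood adjusted p = 0.945) over all 8 libraries and -0.030 (SE 0.17, adjusted p = 0.907) in replicates 2 to 4. The sign of this value also turned with upper quartile scaling. The RNA value of GFAP, 0.081, and its footprint value, 3.59, came from separate libraries, gene tables and units, and their difference was not tested.

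APOEB mRNA stood at 141, 435, 181 and 362 CPM in the old libraries, against 66.3, 199, 164 and 163 CPM in the young ones. The 2 highest libraries were old replicates 2 and 4, and old replicates 1 and 3 lay within or below the range of young replicates 2 to 4. The log2 fold change was 0.92 (SE 0.44, edgeR adjusted p = 0.370) over 8 libraries and 0.82 (SE 0.27, adjusted p = 0.0444) in replicates 2 to 4. Over 8 libraries, 57 of 16759 genes were called (0.340%), and neither gene was among them. In replicates 2 to 4, APOEB was called and GFAP was not, beside 31.9% of the 16614 genes tested. The sign in RNA was opposite to that of the footprint value, -2.93, which rests on 5 reads.

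**Figure D5:**
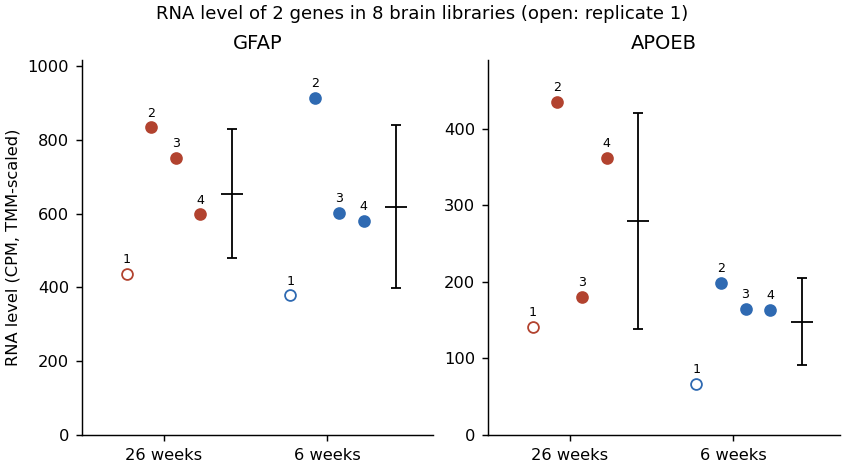
RNA level (y axis, CPM, TMM-scaled) of GFAP and APOEB in the 4 old (red) and 4 young (blue) libraries, numbered by replicate, with the mean and SD in black and replicate 1 as open points. GFAP overlapped fully between the ages, and APOEB reached 435 CPM in old against 199 CPM in young brain.

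No identifier was paired with CA2. An aspartoacylase identifier (Nfu_g_1_005381) was paired with the human gene name ASPA only, so that it cannot be assigned to 1 of the 3 copies. Its level was 8.29, 6.28, 6.33 and 7.21 CPM in the old libraries, against 8.49, 10.7, 9.94 and 9.91 CPM in the young ones. All 4 old libraries lay below all 4 young ones, and the ages did not overlap, in either direction, for 9.89% of the genes tested over 8 libraries and 48.6% of those tested in replicates 2 to 4. The log2 fold change was -0.47 (edgeR adjusted p = 0.324), and -0.71 (SE 0.18, adjusted p = 0.0150) in replicates 2 to 4.

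Over 8 RNA libraries, 0 of 17 tested identifiers of the astroglia list and 0 of 10 of the myelin list were called by edgeR. In replicates 2 to 4, 3 identifiers of the astroglia list, APOEB included, were called higher and 4 lower in old brain. Of the myelin list, 2 were called higher and 2 lower. Over all genes tested there, 16.0% were called higher and 15.9% lower. Markers of other cell types also differed in that fit. Of 15 neuron identifiers 2 were called higher and 6 lower, with a median log2 fold change of -0.49, and of 6 erythrocyte identifiers 0 were called higher and 4 lower, with a median of -1.39. Among the erythrocyte identifiers, 3 globin ones were called lower over 8 libraries as well, beside 0.173% of all genes tested. These 3 were near the floor, averaging 0.0946, 0.0830 and 0.889 CPM in old and 1.49, 2.41 and 4.06 CPM in young libraries. In replicates 2 to 4, the more abundant globin BA1 (Nfu_g_1_007641) had -0.72 (edgeR adjusted p = 0.0302). HBBE1.1 (-0.41) and ALAS2 (-0.12), the latter paired by human gene name only, were not called. CORO1A, the 1 microglial identifier tested, was called higher (log2 fold change 0.51, adjusted p = 0.0202). The part of these cell types in the RNA values of the glial and myelin genes was not tested. With APOEB, the higher astroglial ones were VIM (Nfu_g_1_020179), the intermediate filament partner of GFAP, with a log2 fold change of 0.59 (adjusted p = 0.00413), and a HEPACAM identifier (Nfu_g_1_022252), a glial adhesion molecule, with 1.50 (adjusted p = 0.0119). The lower ones of that list were FABP7, with -0.93 (adjusted p = 0.00139), a second VIM identifier (Nfu_g_1_021146), with -1.12 (adjusted p = 0.0254), SLC4A4, with -0.75 (adjusted p = 0.0356), and CX43, a connexin, with -1.27 (adjusted p = 0.0441). HEPACAM, FABP7, SLC4A4, GPR37 and the second VIM identifier were paired by human gene name only. SLC4A4 and CX43 had the opposite sign in the replicate 1 libraries, 0.24 and 0.87. Of the myelin list, CNP(2of2), a phosphodiesterase of the non-compact sheath, fell by 1.14 on the log2 scale (adjusted p = 0.000468), and the ASPA identifier by 0.71. ENPP6, a choline phosphodiesterase of oligodendrocytes, rose by 0.45 (adjusted p = 0.0295) and GPR37, a receptor of oligodendrocytes, by 0.64 (adjusted p = 0.00401). ENPP6 had the opposite sign in the replicate 1 libraries, -0.62. GFAP, S100B, MBPA and MBPB were not called in either fit. GLUL and ALDH1L1, symbols at 0 in footprints, were present in RNA. GLUL (Nfu_g_1_020449), paired by human gene name only, averaged 1850 CPM in old and 1846 CPM in young libraries. ALDH1L1 (Nfu_g_1_011190) averaged 65.5 CPM in old and 43.4 CPM in young libraries. Why the footprint rows of these symbols were at 0 was not tested.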

How the data were processed

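For footprints, the authors deposited FPKM per gene symbol, estimated with RSEM 1.3.1 after alignment with STAR to NotFur1. For RNA, the authors deposited counts per gene (STAR 2.4.1d, featureCounts 1.4.6-p4). The build, strand setting and treatment of paralogs for RNA are not given in the sources used here, and deposited RPKM values were not used. FPKM were rescaled to TPM and tested on the log2(TPM + 1) scale for genes averaging 1 TPM or more, with limma 3.58.1 and a trended empirical Bayes prior. Reads were recovered from FPKM, or taken as 1 read in genes above 0 in 1 library only (3885), for 99.0% of the genes above 0. Recovery and fits were run on simulated data, in part at a far greater depth than here, and the outcomes are not reported. How many true changes limma can call at the present depth is therefore not given. Each gene's share of recovered reads was compared with a 2-sided exact permutation test (scipy) over the 8 libraries. RNA counts were tested with edgeR 4.0.16 (quasi-likelihood, TMM). P-values were adjusted by Benjamini-Hochberg over all genes tested. Killifish gene names were paired with RNA identifiers by the study's supplementary tables, which were held in part. The genes named are the 4 genes, further rows of their symbols, list genes with at least 4 reads (at most 8 per list), the 3 most similar genes, and list genes with an RNA identifier. The members and lists were chosen with earlier results of these data known. Alternatives were other pseudocounts, filters, scalings, denominators, DESeq2 1.42.0, and leaving out libraries. A further row of the footprint table and some list genes are not reported here. No reference sequence was used here.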

Additional observations from a re-analysis of the deposited data

Results flagged for a closer look

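In groups of 4 libraries, a value was set aside where its gap to the nearest other library exceeded Dixon's critical share of the group's range at the 95% level. This was the case in 4 of the 26 groups examined. The rate of 1 in 20 by chance holds for continuous, normally spread values and not for counts of 0 and 1 read, so it gives no yardstick here. A group with reads in 1 library only is always flagged, and GFAP was counted both as TPM and as share. Groups at 0 throughout were counted but could not be flagged. GFAP in young replicate 3 had 30.3 TPM and a share of 0.115% of recovered reads, both from 1 read, where the other young libraries were at 0. APOEB in young replicate 4 had 482 TPM from 1 read. The myelin list in young replicate 4 took 2.17% of recovered reads.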

How the results depend on the processing

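The footprint log2 fold changes of the 4 genes kept their sign, and none was called, under each alternative that gave a value, which were 17 for GFAP, 16 for APOEB and 15 each for CA2 and ASPA(2of3). The filter of 10 TPM left out CA2 and ASPA(2of3), and too few reads left these and APOEB out of the edgeR fit. For GFAP they ran from 1.52 (pseudocount 10) to 7.37 (scaling without the 20 most abundant genes), with adjusted p of 0.446 to 0.740 outside the leave-one-out fits. That scaling moved the median of all genes to 1.94. Genes called in footprints numbered 1 with recovered reads in edgeR and 3 without replicate 4 of both ages (chosen after seeing the data). Leaving out 1 library gave 3.18 to 4.83 for GFAP, -4.68 to -1.70 for APOEB, and 0 genes called. In RNA, GFAP turned sign with upper quartile scaling (-0.045) and in replicates 2 to 4 (-0.030), and ran from -0.091 to 0.33 with 1 library left out. Upper quartile scaling moved the median of all genes by over 0.1, to -0.074 in place of 0.044. APOEB was called in replicates 2 to 4 (0.82). RNA genes called numbered 57 (28 higher, 29 lower), 57 with upper quartile scaling (19 higher, 38 lower), 761 with DESeq2, 37 with no filter, 5298 in replicates 2 to 4, and 0 to 638 with 1 library left out, the most without young replicate 1. The causes were not tested. Deviations of same-numbered libraries correlated at -0.003 to 0.028 in footprints and 0.80, 0.48, 0.035 and 0.56 in RNA, so that the numbers were not taken to pair them, and old RNA replicates 2 and 3 correlated better with another number than with their own. With a replicate block, 2658 RNA genes and 0 footprint genes were called, and APOEB had 0.88 (edgeR adjusted p = 0.0117). Depth limits the footprint values: 3 reads are 0.0237% of the old and 0.0690% of the young recovered reads.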
